A study of Mus musculus with 4 samples.

Results

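The cells described here are Il18r1-type T cells, a small CD4-type population of tumor-infiltrating T cells. They were chosen by RNA: a cell needed 200 to 3000 detected genes, at most 5% mitochondrial unique molecular identifiers (UMIs), at least 1 UMI of Cd3d, Cd3e or Cd3g, no UMI of Cd8a, Cd8b1 or Foxp3, at most 2 UMIs of Nkg7, and a UMI of at least 3 of the 6 genes Il18r1, Tnfsf8, Tnfsf11, Tmem176a, Tbc1d4 and Serpinb1a. By this rule 184 cells were members, out of 38860 barcodes called as cells, 21900 cells that passed the limits on genes and mitochondrial UMIs, and 6171 cells that met every term but the 6 genes (the CD4-type gate). The 5987 remaining cells of that gate are called the other CD4-type cells.

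The cells came from subcutaneous tumors grown from 105K, a Tsc2-deficient mouse kidney tumor line, in wild-type C57BL/6J mice. The tumor cells carried either a control hairpin (sh-NC) or a hairpin that lowers Cd276, which encodes B7-H3, a checkpoint ligand (sh-B7-H3 (1)), while the hosts and their T cells carried neither. For each group 80 tumors were pooled, live CD3+ T cells were sorted, and RNA and surface antibody tags of the same cells were counted by CITE-seq in 2 libraries per group. The labels describe the libraries of a group as lanes of 1 pool whereas the paper's legend calls them independent samples, so p-values measure only the spread between these libraries, which may be technical. Loss of Tsc2 and the sort were shared by all libraries, and only 1 hairpin against Cd276 was used.

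IL-18 receptor 1 is the ligand-binding chain of the receptor for interleukin 18, an inflammasome-dependent cytokine that amplifies cytokine release by T cells that have met antigen. Tnfsf8 encodes CD30 ligand and Tnfsf11 encodes RANKL, both TNF-family ligands on activated T helper cells. Tbc1d4 encodes a Rab GTPase-activating protein of glucose transporter traffic, Tmem176a a membrane protein found in type 17 T cells, and Serpinb1a an inhibitor of neutrophil proteases that is also made by type 17 T cells. Memory CD4 T cells are recognized by high CD44 and by low expression of lymph node homing genes such as Ccr7.

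The 4 libraries held 7030 to 12112 called cells and 79224898 to 132820909 RNA UMIs. Members contributed 575295 and 552025 RNA UMIs in sh-NC libraries 1 and 2, but only 146385 and 97559 in sh-B7-H3 (1) libraries 1 and 2. The median member had 6963, 7545, 7418 and 7976 UMIs in these 4 libraries, in the same order. Any pair of libraries shared 17 to 35 called barcodes, and none was a member in both. Cd276 was counted 9 to 11 times per library and never in a member. Since the knockdown was made in tumor cells that the sort removed, its level in T cells does not check the hairpin.

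The combinations of the 6 rule genes are a description, since a rule of at least 3 of 6 genes limits which of them can occur together. Exactly 3 of the 6 genes were detected in 151 members, 4 in 30, 5 in 3 and all 6 in 0. Il18r1 was detected in 134 members, Tnfsf8 in 128, Tbc1d4 in 122, Tnfsf11 in 83, Tmem176a in 74 and Serpinb1a in 47. The leading combinations were Tnfsf8 with Tnfsf11 and Tbc1d4 in 35 cells, Il18r1 with Tnfsf8 and Tbc1d4 in 32, and Il18r1 with Tmem176a and Serpinb1a in 29. Tnfsf8 and Tbc1d4 were found together in 100 cells and Il18r1 and Serpinb1a in 46, whereas Serpinb1a was found with Tnfsf8 in 4 cells and with Tnfsf11 in 4. Tmem176a was found with Serpinb1a in 37 cells, with Tnfsf8 in 32, with Tbc1d4 in 26 and with Tnfsf11 in 13.

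The levels of the rule genes are given for description only, since they chose the cells. Levels are counts-per-million (CPM), the UMIs of a gene scaled to the RNA UMIs of the summed cells, in the order sh-NC libraries 1 and 2 and sh-B7-H3 (1) libraries 1 and 2. Il18r1 (chromosome 1, 40465552 to 40500854, mm10, plus strand) was at 207, 292, 307 and 215 CPM in members and at 19.0 to 25.1 CPM in the other CD4-type cells. Tnfsf8 was at 464, 237, 314 and 164 CPM, and Tbc1d4 at 346, 181, 116 and 164 CPM, so that both were highest in sh-NC library 1. Tmem176a ran the other way in part, at 151, 192, 294 and 236 CPM. Both sh-B7-H3 (1) libraries lay above both sh-NC libraries, as they did in 16.1% of all genes tested. Tnfsf11 was at 68.3 to 148 CPM and Serpinb1a at 82.0 to 138 CPM, with overlapping groups. Just outside the threshold, 497 gate cells had exactly 2 of the 6 genes. Their Cd44 was at 31.6, 45.0, 92.2 and 49.0 CPM, against 93.0, 111, 73.9 and 135 CPM in the members with exactly 3, and their Icos at 57.5 to 110 CPM, against 156 to 279 CPM.

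The label of CD4 T cells held for most members but not for all. Cd4, the MHC class II co-receptor, was detected in 61 of 80, 42 of 72, 12 of 20 and 7 of 12 members (58.3 to 76.3%). It was detected in 49.3 to 61.5% of the other CD4-type cells, whose median depth was 6086 to 8070 UMIs. In Cd8-positive cells, which should lack it, the share was 16.9 to 25.0% with a median depth of 7115 to 9116 UMIs, so the members lay well above this background. Cd4 was at 285, 207, 212 and 144 CPM in members and 125 to 130 CPM in the other CD4-type cells, and every library was higher in members. A UMI of a gamma-delta T cell receptor constant gene (Trdc or Tcrg-C) was found in 5, 12, 4 and 2 members (6.25, 16.7, 20.0 and 16.7%). These shares lay above the 3.69 to 8.43% of the other CD4-type cells in every library, whereas Cd8-positive cells held 8.83, 9.50, 30.3 and 28.6%, above the members in every library but sh-NC library 2. A single such UMI therefore does not identify a cell.

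Read together, Cd4 alone was found in 116 members, both kinds in 6, neither in 45 and a gamma-delta constant gene alone in 17. The 17 cells held 167 Trdc UMIs and 42 UMIs of Cd163l1 (a scavenger receptor of interleukin-17-type gamma-delta cells). Their TCR gamma-delta tag was at 2010 tag CPM (counts-per-million of the tag UMIs) and their TCR beta tag at 3474, against 768 and 14963 in the 116 cells with Cd4 alone. For at least these 17 cells the data therefore go against the name of CD4 T cells, and the population is called Il18r1-type here. Cd8a was not counted in any member, as the rule required. The natural killer gene Ncr1 and the B cell genes Cd79a and Ms4a1 were at 0, and no tumor or stroma gene other than Epcam was counted.

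RNA of myeloid cells was present in a minority of members. The 7 myeloid markers, all of them detected in each sh-NC library and 6 of them in each sh-B7-H3 (1) library, summed to 1394, 679, 1004 and 1661 CPM in members and 420, 385, 1957 and 1705 CPM in the other CD4-type cells. At least 3 myeloid or B cell UMIs were found in 11, 10, 7 and 3 members, 31 in all. Apoe, a lipid carrier of macrophages, was found in 22 members with up to 189 UMIs in a cell, and H2-Aa, an MHC class II chain, in 10. A simulated-doublet score marked 13, 12, 7 and 3 members, a larger share of the sh-B7-H3 (1) members than of the sh-NC members. These cells were kept, and results were recomputed without them.

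Members carried the RNA of antigen-experienced T cells. All RNA levels of members against other CD4-type cells are descriptions without a test, because the rule chose the cells by RNA. The gate left out Foxp3-positive and Nkg7-high cells, so a higher level is not shown to be particular to members. Cd44 was at 118, 132, 102 and 113 CPM in members and 18.4 to 24.0 CPM in the others, a ratio of the library means of 5.71. S100a4, a calcium-binding protein of motile memory cells, was at 706, 1009, 2063 and 2419 CPM against 46.7, 53.8, 150 and 169 CPM, a ratio of 14.8. S100a6 was 12.8 times as high and Itgb1, the integrin beta 1 chain, 7.44 times as high. Every one of these genes was higher in members in all 4 libraries. Il7r, the interleukin 7 receptor of resting T cells, was only 1.72 times as high (639 ± 219 against 371 ± 72.3 CPM, mean ± SD, n = 4 libraries).

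Genes of naive and lymph node homing T cells were lower in members. Igfbp4 was at 92.1, 99.6, 68.3 and 51.3 CPM in members and 439, 428, 292 and 287 CPM in the others. Dapl1 was at 115 ± 63.3 against 505 ± 58.2 CPM, Actn1 at 33.7 ± 15.8 against 112 ± 4.14 CPM, and Ly6c1 at 35.7 ± 32.4 against 110 ± 42.1 CPM (mean ± SD, n = 4 libraries). These 4 genes led the list of lower genes of at least 20 CPM in members, each ranked by the library where its ratio was largest. Satb1, a chromatin organizer, and Lef1, a transcription factor of naive T cells, were at 0.441 and 0.487 of the level in the others. The homing receptor Ccr7 was at 0.490. All 7 were lower in members in every library. Tcf7 and Klf2, which also mark resting T cells, were not lower, with ratios of 0.992 and 1.00.

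**Figure D1:**
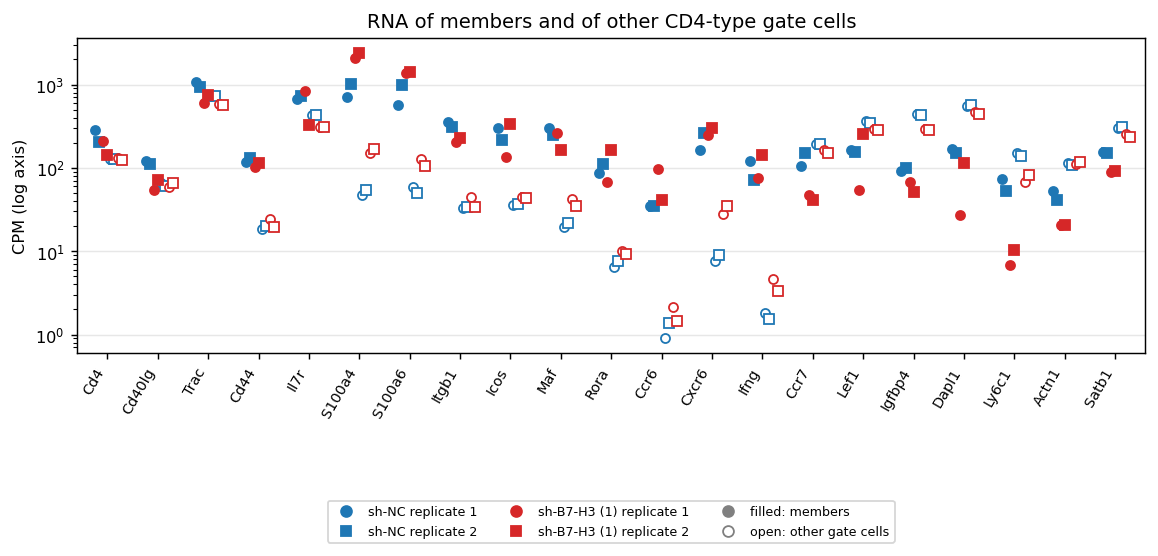
RNA levels (CPM, log axis) for 21 genes, each point 1 library: filled, the 184 members; open, the other CD4-type cells; blue, sh-NC; red, sh-B7-H3 (1). S100a4 in members runs from 706 to 2419 CPM, above the 46.7 to 169 CPM of the other cells, and Igfbp4 in members runs from 51.3 to 99.6 CPM, below their 287 to 439 CPM.

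Outside the rule, the genes with the highest ratio in the library where the ratio was smallest were Ccr6, Krt83, Ifng, Gm17745, S100a4, Sema6d, Casp4, Plcb4, Chst2 and Casp1. Ccr6, a chemokine receptor of type 17 and memory cells, was at 34.8, 34.4, 95.6 and 41.0 CPM in members against at most 2.16 CPM in the others, from 57 UMIs in 32 cells. Ifng, the gene of interferon gamma, was at 122, 70.6, 75.1 and 144 CPM against at most 4.58 CPM, from 134 UMIs in 35 cells with up to 20 UMIs in a cell. Casp1, the caspase that activates interleukin 18, was at 48.9 to 81.7 CPM against 4.93 to 6.74 CPM, and Casp4, its partner in the noncanonical inflammasome, at 45.3 to 61.5 CPM against 2.54 to 4.58 CPM. Both caspases were detected in more cells than Ifng, Casp1 in 63 and Casp4 in 44.

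Members expressed genes of several helper types at once. Icos, the costimulatory receptor of follicular and memory helper cells, was at 301, 214, 137 and 338 CPM against 36.0 to 44.7 CPM. Maf, a transcription factor of type 17 and follicular helper cells, was at 297, 248, 260 and 164 CPM against 19.7 to 42.1 CPM. Rora, a nuclear receptor of type 17 cells, was at 68.3 to 164 CPM against 6.38 to 9.97 CPM. The groups overlapped for all of these. The cytokines of type 17 cells were almost missing, with 1 UMI of Il17a, 3 of Il17f and 2 of Il22 in all members, although Il23r was counted 11 times in 11 cells.

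Of the follicular helper genes, Icos was detected in 121 members, Sh2d1a in 108, Slamf6 in 101 and Izumo1r in 89, while others were found in few cells. Cxcr5, the receptor that draws T cells to B cell follicles, was counted 35 times in 18 cells, and Bcl6, the master regulator of follicular helper cells, 19 times in 13 cells. Il21 was counted 28 times in 12 cells. Sostdc1, a gene of follicular helper cells, was counted 52 times in 7 cells, all of them from sh-NC tumors, up to 17 times in a cell. It was counted 0 times in the sh-B7-H3 (1) members. With the UMIs in so few cells, a count of 0 among 20 and 12 members sets no firm limit on its level. Of type 1 and type 2 genes, Tbx21 was counted 3 times, Il5 0 times, Il13 once and Il4 41 times, 22 of them in 1 cell. Gata3, the type 2 regulator, was at 101, 96.0, 95.6 and 226 CPM against 34.3 to 38.7 CPM. Among cytolytic genes, Gzmk was counted once and Gzmb 35 times, 31 of them in 1 cell.

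Of the other TNF-family ligands, Tnfsf14 (LIGHT) was at 28.5 ± 9.53 CPM in members and 1.32 ± 0.449 CPM in the others, Tnf at 58.0 ± 29.5 against 12.8 ± 1.94 CPM and Lta at 70.5 ± 29.9 against 16.3 ± 2.60 CPM. Ltb, which most gate cells expressed, was at 1278 ± 119 against 978 ± 6.46 CPM (mean ± SD, n = 4 libraries). Il18rap, the signaling chain that pairs with IL-18 receptor 1, was at 15.6, 5.43, 34.2 and 41.0 CPM against 0.797, 1.24, 2.97 and 2.75 CPM, from 21 UMIs in 18 members. The receptors Tnfrsf4 (OX40) and Tnfrsf18 (GITR) were 4.92 and 2.37 times as high in members, and Pdcd1 (PD-1) 7.60 times as high. Chemokine receptors of tissue T cells were also higher, with Cxcr6 at 162, 263, 246 and 297 CPM against 7.68, 8.99, 27.8 and 35.0 CPM and Ccr2 at 61.5 to 150 CPM against 6.53 to 15.6 CPM.

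Members with and without a Serpinb1a UMI differed in most of these genes. This split was chosen after the values were seen, uses a rule gene and has no test. A UMI was found in 13, 21, 9 and 4 members (16.3, 29.2, 45.0 and 33.3%), 47 in all. The 47 cells had higher Il7r (1332 against 463 CPM in the 137 cells without), S100a4 (2437 against 640 CPM), Cxcr6 (568 against 103 CPM), Ccr2 (309 against 27.3 CPM), Ccr6 (95.2 against 23.4 CPM) and Tmem176b (542 against 62.5 CPM). Of the 47 cells 18 held a gamma-delta constant UMI, against 5 of the 137. Their TCR gamma-delta tag was at 1302 tag CPM, against 756, their TCR beta tag at 8577, against 15019, and their CD4 tag at 958, against 3021. In the other CD4-type cells the CD4 tag was at 1642 to 1804, so the 47 cells as a sum lay below them. A Cd4 UMI was found in 18 of the 47 cells and in 104 of the 137. The name of CD4 T cells is thus not shown for all of the 47.

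The 137 cells without Serpinb1a had higher levels of several follicular helper genes and of the CD4 tag, although Maf was lower in them (206 against 435 CPM). Izumo1r (folate receptor 4) was at 306 CPM in them and at 11.5 CPM in the 47 cells, Slamf6 at 280 against 92.3 CPM, Sh2d1a at 250 against 72.1 CPM and Cd200 at 119 against 8.65 CPM. All 28 Il21 UMIs, all 52 Sostdc1 UMIs and 131 of the 134 Ifng UMIs were in the 137 cells. The GITR tag was at 16858 against 7434 tag CPM. The tags of CD73, CD43 and ICOS were similar between the kinds of cells (12341 and 11235, 8348 and 9032, and 4076 and 4220 tag CPM, without and with Serpinb1a). Icos RNA was also similar, at 262 and 219 CPM.

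**Figure D2:**
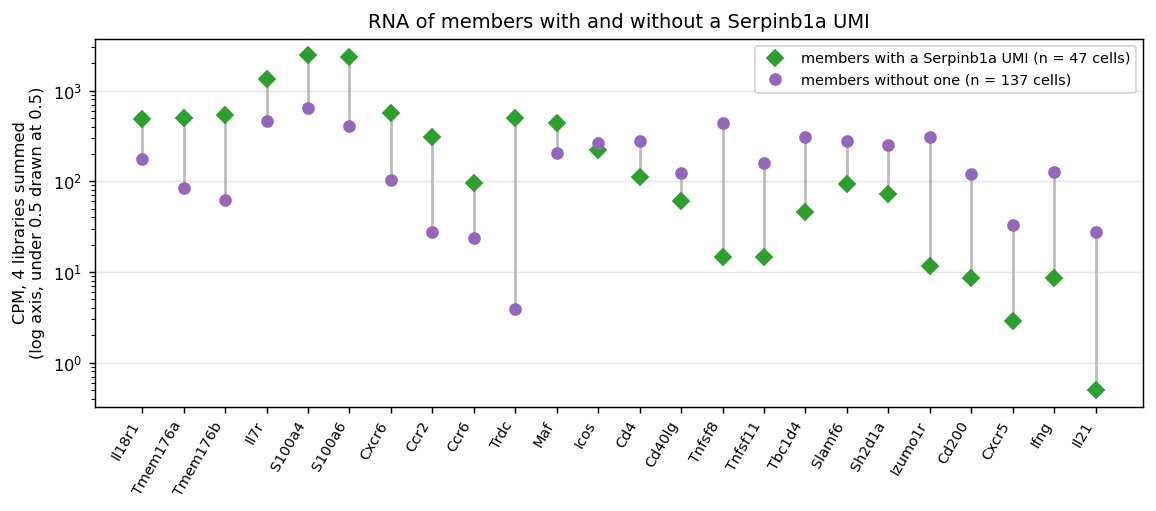
RNA levels (CPM, log axis, UMIs of the 4 libraries summed, values under 0.5 drawn at 0.5) of 24 genes in the 47 members with a Serpinb1a UMI (green diamonds) and the 137 without (purple circles). Cxcr6 stands at 568 against 103 CPM and Izumo1r at 11.5 against 306 CPM, while Icos stands at 219 and 262 CPM.

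Surface antibody tags, which the rule did not use, were tested between members and the other CD4-type cells of the same libraries with edgeR, with library as a block. Of 197 tags 7 were higher and 0 lower by a log2 difference of at least 1 with an adjusted p (Benjamini-Hochberg) under 0.05 (3.55% of tags called). They were CD73, CD43, ICOS, CD49b, GITR, PD-1 and CD38. Tags were not compared with the Foxp3-positive and Nkg7-high cells that the gate left out, so none of the 7 is shown to be particular to members. Without the limit on size 27 tags passed, 21 higher and 6 lower, and 50 had an unadjusted p under 0.05.

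CD73, the ectoenzyme that makes adenosine, was at 11410, 12624, 12448 and 13486 tag CPM in members and 4183, 4690, 4088 and 4548 in the others. All 4 member values lay above all 4 others (log2 difference 1.76, SE 0.11, edgeR adjusted p = 7.96e-05). Its gene Nt5e was also higher, at 83.0 against 10.7 CPM. CD43, a sialoglycoprotein of activated T cells, was at 8065 to 9933 against 3761 to 4012 tag CPM (1.43, SE 0.10, edgeR adjusted p = 0.000165). ICOS was at 4193, 4069, 3196 and 6006 against 1552 to 1798 tag CPM (1.59, SE 0.16, edgeR adjusted p = 0.00222). For CD73, CD43 and ICOS the member libraries did not overlap the others.

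CD49b, the integrin alpha 2 chain, was at 1637, 1597, 2653 and 2081 tag CPM in members against 714, 746, 1352 and 1281 (1.24, SE 0.08, edgeR adjusted p = 7.96e-05), although its gene Itga2 was counted only 5 times in members. PD-1 was at 4793, 4029, 5652 and 6480 against 1934, 1925, 3518 and 3888 tag CPM (1.20, SE 0.07, edgeR adjusted p = 7.96e-05). GITR was at 12861 to 18623 against 7731 to 8242 tag CPM (1.22, SE 0.16, edgeR adjusted p = 0.00256). CD38, an ectoenzyme of activated cells, was at 17707, 17219, 11324 and 24365 against 5980, 5092, 12319 and 12078 tag CPM (1.31, SE 0.29, edgeR adjusted p = 0.0405). CD38 was thus higher in 3 of 4 libraries and not in sh-B7-H3 (1) library 1. Its call was lost without sh-NC library 1 (edgeR adjusted p = 0.166), sh-NC library 2 (0.104), sh-B7-H3 (1) library 2 (0.207) or the doublet-scored cells (0.125), while its log2 difference was 1.11 to 1.70 in all 17 alternatives. The CD38 call was lost in 8 of 17 alternatives in all. CD49b went to 0.96, under the size limit, when members needed a Cd4 UMI.

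CD4 and CD44 themselves passed the test at a smaller size. CD4 was at 2833, 2114, 2466 and 2608 tag CPM against 1642 to 1804 (0.77, edgeR adjusted p = 0.00136), and CD44 at 279, 295, 375 and 395 against 204 to 235 (0.80, edgeR adjusted p = 0.0102). The CD44 tag lay below the highest single isotype control tag in every library, which was at 566, 491, 750 and 790 tag CPM in members. The 6 lower tags were CD155, CD55, CD26, a TCR V beta chain, Ly-6C and CD1d, with log2 differences of -0.68 to -0.32. The TCR gamma-delta tag did not pass (0.11, SE 0.11), nor did the tags of CCR6, CXCR6 and CXCR3, although their RNA was higher. The 9 isotype control tags summed to 2849, 2752, 3492 and 3898 tag CPM in members and 3251, 3692, 5205 and 5250.5 in the others, and were thus lower in members in every library.

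**Figure D3:**
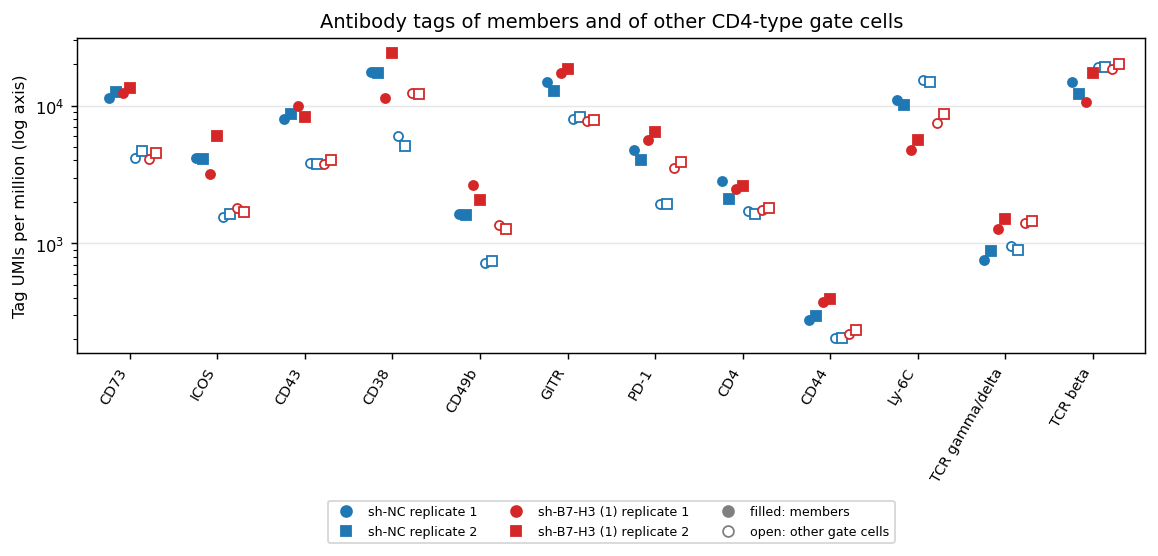
Surface tags (tag CPM, log axis), each point 1 library: filled, members; open, other CD4-type cells; blue, sh-NC; red, sh-B7-H3 (1). CD73 in members runs from 11410 to 13486, above 4088 to 4690 in the other cells, while the CD38 point of sh-B7-H3 (1) library 1 lies at 11324, below its own other cells at 12319.

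The first question between the groups was how frequent these cells were. Members made up 80 of 7549 and 72 of 6233 cells passing the filters in sh-NC tumors (1.06% with an exact 95% interval of 0.841 to 1.32%, and 1.16% with 0.905 to 1.45%). In sh-B7-H3 (1) tumors they made up 20 of 3499 and 12 of 4619 (0.572% with 0.349 to 0.881%, and 0.260% with 0.134 to 0.453%). The intervals cover counting error only. Both sh-B7-H3 (1) libraries lay below both sh-NC libraries, and the group means were 1.11 ± 0.0675 and 0.416 ± 0.220% (SD, n = 2), a ratio of 0.375. The ratio was 0.235 without sh-B7-H3 (1) library 1 and 0.516 without library 2. The exact two-sided permutation p was 0.333, the smallest that 2 against 2 libraries can give.

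Within the CD4-type gate the groups overlapped by the main rule. The shares were 80 of 2653 (3.02%) and 72 of 2019 (3.57%) in sh-NC and 20 of 637 (3.14%) and 12 of 862 (1.39%) in sh-B7-H3 (1). The means were 3.29 ± 0.389 and 2.27 ± 1.24% (SD, n = 2), a ratio of 0.689, and the exact two-sided permutation test gave p = 0.667. Without sh-B7-H3 (1) library 2 the ratio was 0.954, and without library 1 it was 0.423, so the value rested on which library was kept. The groups also overlapped with at least 4 of the 6 rule genes required. In every other choice of cells both sh-B7-H3 (1) libraries lay below both sh-NC libraries (exact permutation p = 0.333). The shares were 2.30 and 2.08 against 1.88 and 0.812% with a Cd4 UMI required. Without doublet-scored cells they were 2.88 and 3.32 against 2.34 and 1.20%. The gate itself held fewer of the passing cells in sh-B7-H3 (1) tumors. When every cell was thinned to 3000 UMIs, which left 7453 of 7549, 6155 of 6233, 3197 of 3499 and 4252 of 4619 passing cells, the members were 0.511, 0.503, 0.277 and 0.159% of the cells left, and the group ratio was 0.430. Of the gate cells after thinning they were 1.19, 1.26, 1.15 and 0.651%, a ratio of 0.737. Cells with at least 3 of the 6 genes were also found outside the gate, as 11 of 213 and 12 of 201 Nkg7-high Cd8-negative cells in sh-NC and 9 of 446 and 12 of 571 in sh-B7-H3 (1), where that gate held more cells, and at 0.862 to 1.27% of Cd8-positive cells. Among Foxp3-positive Cd8-negative cells they were 8 of 386 and 14 of 352 in sh-NC and 2 of 199 and 6 of 228 in sh-B7-H3 (1).

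**Figure D4:**
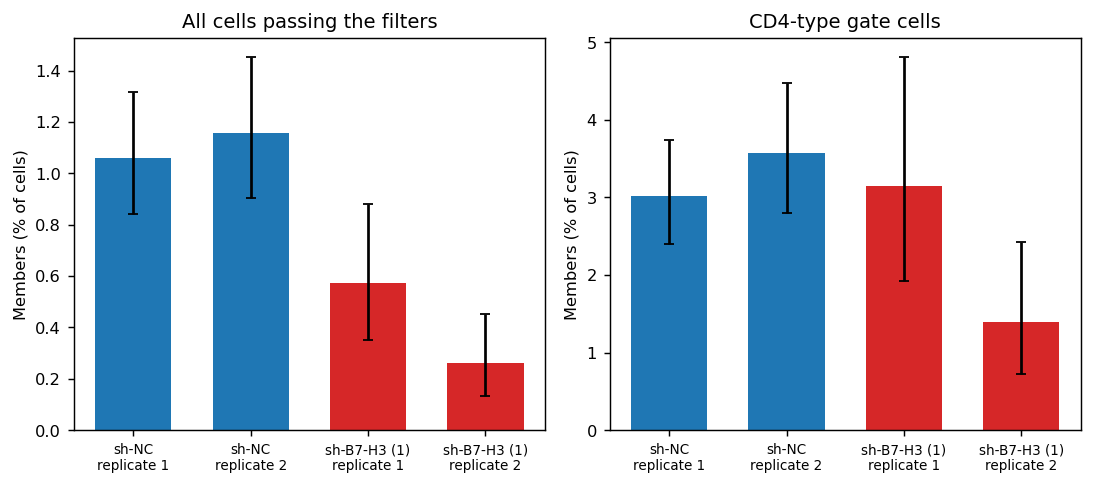
Members as a percentage of all cells passing the filters (left) and of CD4-type gate cells (right), 1 bar per library with exact 95% binomial intervals; blue, sh-NC; red, sh-B7-H3 (1). On the left both sh-B7-H3 (1) bars (0.572 and 0.260%) stand below both sh-NC bars (1.06 and 1.16%), and on the right they overlap (3.14 and 1.39% against 3.02 and 3.57%).

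The next question was which genes differed between the groups within the members. Of 4332 genes tested with edgeR on the UMIs summed per library, 11 were called (0.254%), 9 higher (0.208%) and 2 lower (0.0462%) in sh-B7-H3 (1), and 332 had an unadjusted p under 0.05. The 9 higher genes include Nkg7, whose values the rule limits, so its call is a description only. The count was 20 without sh-B7-H3 (1) library 1, 31 without library 2, and 7 with DESeq2. In every fit between the groups without 1 library, the spread came from the group that kept both, and the lone library was assumed to vary like them. It was 5 when members with myeloid or B cell UMIs were left out or a Cd4 UMI was required, and 36 when doublet-scored cells were left out.

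The smallest adjusted p was that of Gm42418, a long noncoding RNA gene on chromosome 17 (39846958 to 39848788, mm10, plus strand). It rose from 5654 and 5619 CPM in sh-NC to 31110 and 32913 CPM in sh-B7-H3 (1) members (log2 fold change 2.54, SE 0.10, edgeR adjusted p = 1.06e-22). The same step was seen in the other CD4-type cells, from 5064 and 4938 to 31584 and 30988 CPM, and in barcodes with at most 100 UMIs, which hold free RNA, it was at 44216, 30525, 64412 and 37862 CPM. AY036118, on the opposite strand of the same stretch (39847113 to 39848035), rose from 695 and 726 to 2630 and 2686 CPM (1.94, SE 0.12, edgeR adjusted p = 1.46e-15), and its reads may overlap with those of Gm42418. Lars2, the mitochondrial leucyl-tRNA synthetase, rose from 113 and 187 to 649 and 687 CPM (2.19, SE 0.21, edgeR adjusted p = 3.66e-09). In the other CD4-type cells the step was of like size for Gm42418, and AY036118 and Lars2 were also higher there in sh-B7-H3 (1).

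S100a4 (chromosome 3, 90603771 to 90606045, mm10, plus strand) rose in members from 706 and 1009 to 2063 and 2419 CPM (1.42, SE 0.15, edgeR adjusted p = 4.35e-07). It was also higher in the other CD4-type cells of sh-B7-H3 (1), at 150 and 169 against 46.7 and 53.8 CPM, and in free RNA, at 538 and 536 against 126 and 162 CPM. Members with a Serpinb1a UMI, whose S100a4 was higher, were 40.6% of the sh-B7-H3 (1) members and 22.4% of the sh-NC members, and their part in the result was not tested. With at least 4 of the 6 rule genes required the S100a4 call was lost (log2 fold change 0.16). Lgals1, which encodes galectin 1, rose from 556 and 534 to 970 and 1322 CPM (1.09, SE 0.15, edgeR adjusted p = 5.09e-06). Its value went to 0.90 without sh-B7-H3 (1) library 2 and to 0.80 without members with myeloid or B cell UMIs, under the size limit in both cases, and its sign turned with at least 4 of the 6 rule genes required (-0.17). The Lgals1 call was also lost with a Cd4 UMI required and with no filter on low counts.

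Ccl5, a chemokine of effector T cells, rose from 123 and 67.0 to 225 and 390 CPM (1.67, SE 0.30, edgeR adjusted p = 0.00242). The other CD4-type cells held 42.8 and 46.1 CPM in sh-NC and 255 and 297 CPM in sh-B7-H3 (1), and free RNA held 1212, 1417, 4279 and 4741 CPM, far above the members. The Ccl5 call was lost without sh-NC library 2 (1.28, edgeR adjusted p = 0.167), with up to 10% mitochondrial UMIs (0.78) and without members that held gamma-delta constant UMIs (1.53, edgeR adjusted p = 0.0633). Adgre5, which encodes the adhesion receptor CD97, rose from 71.3 and 94.2 to 171 and 236 CPM (1.30, SE 0.30, edgeR adjusted p = 0.0328), and the other CD4-type cells were at 59.4 to 74.1 CPM in all libraries. The Adgre5 call was lost in 8 of 14 alternatives. Among them were the fits without sh-NC library 1, sh-NC library 2 or sh-B7-H3 (1) library 2. It was also lost with a Cd4 UMI required, without doublet-scored cells, without members with myeloid or B cell UMIs, with no upper limit on genes and with DESeq2. Its log2 fold change stayed at 0.98 to 1.51 in all 14. The remaining higher genes were mt-Atp8 and Nkg7. The mitochondrial gene mt-Atp8 was at 149, 147, 232 and 379 CPM (1.04, SE 0.25, edgeR adjusted p = 0.0349), and its call was lost without sh-NC library 1 (1.01), sh-NC library 2 (1.00) or sh-B7-H3 (1) library 2 (0.72). The mt-Atp8 call was lost in 10 of 15 alternatives in all. Nkg7 is a gene that the rule caps at 2 UMIs per cell, so its 12.2, 12.7, 68.3 and 103 CPM are a description, and the call was lost without any 1 library other than sh-B7-H3 (1) library 1, with log2 fold changes of 2.29 to 3.06 over the alternatives.

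The 2 lower genes were Jun and A430093F15Rik. Neither call held when a Cd4 UMI was required or when members with myeloid or B cell UMIs were left out. In both settings 5 genes were called, all of them higher. Jun, a subunit of the AP-1 transcription factor, fell from 318 and 264 to 41.0 and 123 CPM (-1.92, SE 0.32, edgeR adjusted p = 0.000343). It was also lower in the other CD4-type cells of sh-B7-H3 (1), at 238 and 249 against 423 and 415 CPM. Without sh-B7-H3 (1) library 1 the Jun call was lost (-1.25, edgeR adjusted p = 0.104), as it was with no upper limit on detected genes (-0.59). A430093F15Rik, a noncoding transcript on chromosome 19, fell from 111 and 90.6 to 13.7 and 20.5 CPM (-2.55, SE 0.54, edgeR adjusted p = 0.0134), while in the other CD4-type cells it was at 18.9, 22.2, 29.9 and 32.3 CPM. The A430093F15Rik call was lost without sh-NC library 1 or sh-B7-H3 (1) library 1, and with up to 10% mitochondrial UMIs the value was -0.05. Its 13.7 and 20.5 CPM rested on few UMIs, as the sh-B7-H3 (1) members held 146385 and 97559 RNA UMIs.

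**Figure D5:**
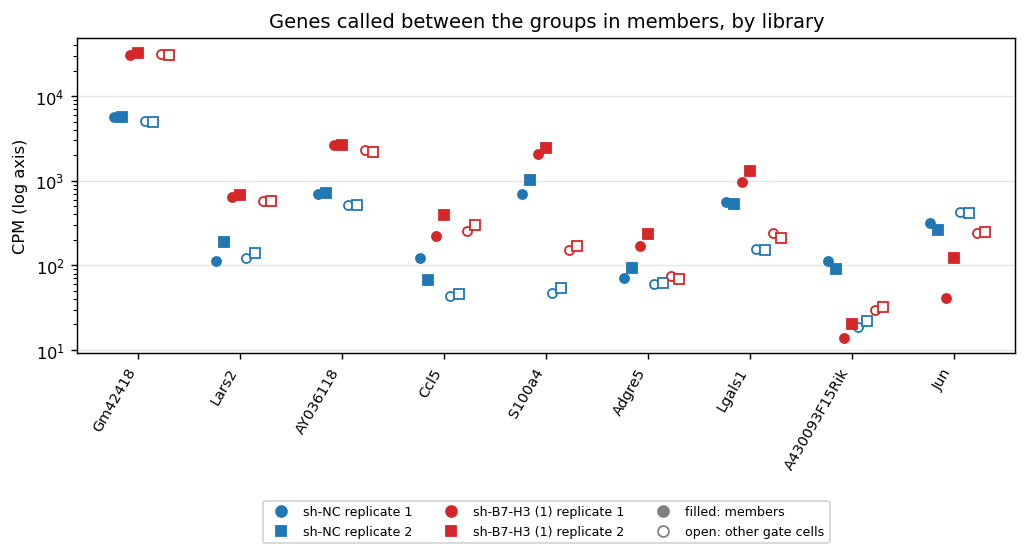
The 9 genes called between the groups with a mean of at least 50 CPM, outside the mitochondrial genome (CPM, log axis), each point 1 library: filled, members; open, other CD4-type cells; blue, sh-NC; red, sh-B7-H3 (1). Gm42418, Lars2, AY036118, Ccl5 and S100a4 are higher in red in both kinds of cells, while A430093F15Rik is lower in red among members (13.7 and 20.5 against 90.6 and 111 CPM) and not among the other cells.

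Read by gene list, most programs showed no called member, which is no result about them where 0.254% of all genes were called. Of 13 memory genes, 2 were called higher (S100a4 and Lgals1) and 0 lower, where 0.208 and 0.0462% of all genes were. Their median log2 fold change was 0.49, against -0.01 over all genes tested. In 7 of the 13 both sh-B7-H3 (1) libraries lay above both sh-NC libraries and in 2 below, where 16.1 and 22.9% of all genes did so. Of 12 naive and homing genes none was called, 7 lay below and 1 above (22.9 and 16.1% of all genes), and the median was -0.56. Tcf7, a transcription factor of naive and stem-like T cells, had 442 and 368 against 191 and 236 CPM, with an edgeR adjusted p of 0.0349 but a log2 fold change of -0.90, short of the size limit. Ccr7 (-1.45, edgeR adjusted p = 0.15) and Ly6c1 (-2.84, edgeR adjusted p = 0.0787) did not pass, though Ly6c1 was at 73.0 and 52.5 against 6.83 and 10.3 CPM.

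No follicular helper gene was called among the 7 of 11 that were tested (median -0.61), and in 3 of the 7 both sh-B7-H3 (1) libraries lay below both sh-NC libraries, as they did in 22.9% of all genes. Members without a Serpinb1a UMI, in which several of these genes were higher, were 77.6% of the sh-NC and 59.4% of the sh-B7-H3 (1) members, and their part in these values was not tested. Sh2d1a, the adapter SAP needed for T cell help to B cells, was at 275, 181, 68.3 and 133 CPM (-1.22, edgeR adjusted p = 0.0787). None of 7 type 17 genes was called (median 0.18). Of 6 type 1 genes Ccl5 alone was called (list median 0.00), where 0.208% of all genes were called higher. Ifng was at 122, 70.6, 75.1 and 144 CPM with overlapping groups (0.15, SE 0.37). Among 9 residency and adhesion genes none was called (median 0.68). Itgb7, the integrin beta 7 chain of gut-homing and epithelial T cells, came near, at 195 and 212 against 403 and 318 CPM (0.89, edgeR adjusted p = 0.0328). Of 10 immediate early genes Jun alone was called, where 0.0462% of all genes were called lower. None of 8 chemokine receptors, 10 cytokine receptors, 5 inhibitory receptors, 9 type I interferon, 12 glycolysis or 10 heat shock genes was called. With 0.254% of all genes called, a list of this length without a call is no result about its program. Cd4, Cd44, Icos, Maf and Cxcr6 had log2 fold changes of -0.38, -0.19, -0.18, -0.27 and 0.38, none of which passed.

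Of 197 tags, 7 were called between the groups within members (3.55%), 4 higher (2.03%) and 3 lower (1.52%), and 53 had an unadjusted p under 0.05. Tag levels as a whole were shifted, since 62.4% of all tags lay higher in both sh-B7-H3 (1) libraries and 10.7% lower. The tag of CD90.2, a T cell surface protein, was at 384481 and 389795 tag CPM in sh-NC and 348602 and 320488 in sh-B7-H3 (1). The fitted changes therefore stand relative to the scaling over tags. They are smaller than the ratios of tag CPM for the 4 higher tags and larger for the 3 lower tags, and by tag CPM alone CD45 and CD1d would not reach the size limit.

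Ly-6C, a surface protein of naive-type and memory T cells, fell from 10953 and 10149 to 4754 and 5663 tag CPM (log2 fold change -1.37, SE 0.13, edgeR adjusted p = 0.0163), and the other CD4-type cells held 15320, 14965, 7529 and 8733. CD45, the leukocyte phosphatase, fell from 16693 and 15983 to 7398 and 9456 (-1.31, SE 0.16, edgeR adjusted p = 0.0170), and CD1d from 4796 and 4814 to 2663 and 3477 (-1.01, SE 0.14, edgeR adjusted p = 0.0275). The CD45.2 tag, raised against the allele form of CD45 in these hosts, was at 6758, 6403, 6993 and 8587 tag CPM and did not pass (-0.11, edgeR adjusted p = 0.644). In the other CD4-type cells CD45 was at 15525, 15428, 8241 and 7828 and CD1d at 6720, 6950, 4564 and 4738 tag CPM, also lower in sh-B7-H3 (1). The 4 higher tags were FR-beta, CD22, CCR8 and CD107a, with log2 fold changes of 1.01 to 1.25. CD22, a B cell protein, was at 298, 243, 641 and 790 tag CPM and CCR8, a chemokine receptor, at 215, 185, 473 and 606, neither above the highest single isotype control tag in any library. In the other CD4-type cells CD22 was at 251, 244, 806 and 905, CCR8 at 262, 317, 684 and 807, FR-beta at 1021, 993, 2212 and 2301, and CD107a at 693, 644, 1108 and 1058 tag CPM, so all 4 were higher in sh-B7-H3 (1) there too. CD44 and the 7 tags called higher in members than in the other CD4-type cells, CD38 and PD-1 among them, were not called between the groups. The CD38 values were 17707, 17219, 11324 and 24365 tag CPM, with overlapping groups.

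The count of tag calls depended on the setting. The count of 7 went to 2 without sh-NC library 2, where Ly-6C and CD45 remained. It went to 0 by edgeR when doublet-scored cells were left out (52 at an unadjusted p under 0.05), and to 0 when tags were scaled by RNA UMIs (3 at an unadjusted p under 0.05). Over all 16 alternatives the log2 fold change of Ly-6C stayed between -1.49 and -1.05 and that of CD45 between -1.57 and -1.15. CD22 and CCR8 were lost without any 1 of the 4 libraries. Without sh-NC library 2 their values were 0.91 (edgeR adjusted p = 0.0765) and 0.96 (0.0765). CD107a was lost without sh-NC library 1, sh-NC library 2 or sh-B7-H3 (1) library 1, with a lowest value of 0.74. CD1d went under the size limit without sh-NC library 2 (-0.98) or sh-B7-H3 (1) library 1 (-0.84), and FR-beta without sh-NC library 2 (0.99). With at least 4 of the 6 rule genes required, CD1d was at -0.60, CD22 at 0.56 and CCR8 at 0.15.

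Whether the difference between the groups was itself different in members and in the other CD4-type cells was tested as an interaction over 9481 genes. In 22 genes (0.232%) the effect was lower in members and in 0 higher by edgeR, and 536 genes had an unadjusted p under 0.05. The median over all genes was -0.16. The count was 11 without sh-NC library 1 and 34 without sh-B7-H3 (1) library 2. Cxcr6, a chemokine receptor of tissue-resident T cells, was at 162, 263, 246 and 297 CPM in members and 7.68, 8.99, 27.8 and 35.0 CPM in the others, so that the step between the groups was larger in the others (difference of the log2 effects -1.63, SE 0.30, edgeR adjusted p = 3.90e-05). Maf was at 297, 248, 260 and 164 CPM in members, with overlapping groups, and at 19.7, 21.9, 42.1 and 34.8 CPM in the others, where both sh-B7-H3 (1) libraries were higher (-1.32, SE 0.28, edgeR adjusted p = 0.00118). Cxcr3 was at 143, 103, 75.1 and 30.8 CPM in members, lower in both sh-B7-H3 (1) libraries, and at 6.58, 7.93, 15.6 and 12.3 CPM in the others, higher in both (-2.20, SE 0.49, edgeR adjusted p = 0.00531). Ikzf2, the transcription factor Helios, was at 116, 138, 116 and 51.3 against 27.9, 37.6, 66.3 and 61.4 CPM (-1.58, SE 0.35, edgeR adjusted p = 0.00428).

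The Cxcr6 call was lost without sh-NC library 2 (-1.38, edgeR adjusted p = 0.407), and over all 16 alternatives its value ran from -2.66 to -1.38. Those of Maf and Ikzf2 were lost without sh-NC library 1, sh-NC library 2 or sh-B7-H3 (1) library 2, with Maf at -1.16, -1.54 and -1.14 and Ikzf2 at -1.54, -1.70 and -1.20. Cxcr3 was lost without sh-NC library 1 (-1.84) or sh-B7-H3 (1) library 2 (-1.87), and in 8 of 16 alternatives in all. Against cells with 0 of the 6 rule genes the calls of Maf and Cxcr3 were lost. With DESeq2 the calls of Maf, Ikzf2 and Cxcr3 were lost, while that of Cxcr6 stayed. Many of the other genes were myeloid or MHC class II genes. H2-Aa was at 177, 96.0, 102 and 61.5 CPM in members and 26.7, 21.4, 209 and 175 CPM in the others, but its member UMIs came from 10 cells and up to 51 of them from 1 cell. When members with at least 3 myeloid or B cell UMIs were left out 8 genes were called, and when such cells were left out of both kinds of cells 6 were called, among them Cxcr6, Maf, Ikzf2, Jun and A430093F15Rik. The last setting was added after the data were examined.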

How the data were processed

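RNA and surface tags of live CD3+ cells were measured by CITE-seq in 4 libraries, 2 per group. The authors deposited filtered matrices of raw UMI counts (32285 genes, 197 named tags and 1 unnamed tag, which was left out), made with Cell Ranger against mm10. The file header names cellranger 6.1.1, and Seurat 4.0.0 is named in the submitters' processing notes. Totals per library were 79224898 to 132820909 RNA UMIs. The members and gene lists were chosen with earlier results of these data known.

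Counts of members were summed per library and tested with edgeR 4.0.16 in R 4.3.3 (filterByExpr, TMM, quasi-likelihood test, Benjamini-Hochberg adjustment). A call needed an adjusted p under 0.05 and an absolute log2 change of at least 1. Tags of members and other gate cells were compared with library as a block. DESeq2 1.42.0 was an alternative. Genes named in the text were rule and list genes by role, called genes averaging 50 CPM or more whose groups did not overlap (no mitochondrial, ribosomal or T cell receptor segment genes), all called tags, genes called in the interaction, and the 10 genes with the highest smallest library ratio of members over others at 20 CPM or more in members and above 0 in the others. Actn1, Nt5e, Itga2 and mt-Atp8 were named after their values were seen. Shares have exact Clopper-Pearson 95% intervals. Doublets were scored against simulated ones (2000 variable genes, 30 components, 2 simulated per cell, 30 neighbors). The score marked 15.99, 14.65, 22.58 and 23.4% of passing cells, which were kept in the main results. Other tools were Python 3.11.15, numpy 2.4.6, scipy 1.17.1 and scikit-learn 1.9.0. Coordinates are from GENCODE for mm10. Gene levels of members gave no sign that libraries with the same number were paired, which does not decide whether they were handled together. Library 2 had the lower median of tag UMIs per member in both groups (4432 against 5144.5 in sh-NC, 2857 against 5061 in sh-B7-H3 (1)). No batch or date was given in the labels used here, so handling and group cannot be told apart. Some items are not reported here.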

Additional observations from a re-analysis of the deposited data

Results flagged for a closer look

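The test of whether the difference between the groups differed in members and in the other CD4-type cells called 22 genes, each with a lower effect in members. The values are differences of the log2 effects, members minus other CD4-type cells.

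Among genes of T cells, A430093F15Rik was at -3.31, Cxcr3 at -2.20, Cxcr6 at -1.63, Ikzf2 at -1.58, Maf at -1.32, Jun at -1.28 and Ccl5 at -1.10. The Ccl5 call was lost without sh-NC library 1 (-0.57) or sh-B7-H3 (1) library 1 (-0.90). The Jun call was lost without sh-NC library 1 (-1.18), sh-NC library 2 (-1.39) or sh-B7-H3 (1) library 1 (-0.68). Of 16 alternatives the call stayed in 7 for Ccl5 and in 6 for Jun. With DESeq2 the calls of A430093F15Rik, Cxcr3, Ikzf2, Maf, Jun and Ccl5 were lost, while that of Cxcr6 stayed.

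Among genes of myeloid and antigen-presenting cells, H2-DMb1 was at -4.84, H2-Aa at -3.77, Ly86 at -3.54, H2-Ab1 at -3.48, C1qa at -3.02, C1qb at -2.78 and Lgals3 at -1.41. The member UMIs of H2-Aa came from 10 cells, those of H2-Ab1 from 12, of C1qb from 11, of C1qa from 10, of Ly86 from 8 and of H2-DMb1 from 6. The myeloid markers summed to 679 to 1661 CPM in members, and in the other CD4-type cells to 385 and 420 CPM in sh-NC and 1705 and 1957 CPM in sh-B7-H3 (1). When members with at least 3 myeloid or B cell UMIs were left out, the calls of H2-DMb1, H2-Aa, Ly86, H2-Ab1, C1qa and C1qb were lost. That of Lgals3 was lost when such cells were left out of both kinds of cells. C1qa and C1qb are among the markers by which these cells were left out, and the part of such cells was not tested beyond this. The H2-DMb1 call was lost without any 1 library (edgeR adjusted p = 0.656 and 0.828 without sh-NC libraries 1 and 2, 0.0980 and 0.385 without sh-B7-H3 (1) libraries 1 and 2), and in 13 of 15 alternatives in all. The Ly86 call was lost without sh-NC library 1 (-3.14) or sh-B7-H3 (1) library 2 (-2.89), and the C1qa call without sh-NC library 1 (-2.05). The Lgals3 call was lost without sh-NC library 1 (-1.56), sh-NC library 2 (-1.30) or sh-B7-H3 (1) library 1 (-0.30).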

How the results depend on the processing

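The group comparisons rested on 2 libraries per group and 12 to 80 members per library. The count of genes called between the groups (11) was 5 when a Cd4 UMI was required, 36 with doublets left out (10 shared with the 11), 5 with myeloid or B cell UMIs left out, 7 with DESeq2, 21 with no filter on low counts and 19 with no limit on the fold change, and 11 to 31 when 1 library was left out (7 to 9 shared). The count of tags called between the groups (7) was 3 when a Cd4 UMI was required, 4 without gamma-delta constant UMIs, 4 with up to 10% mitochondrial UMIs, 3 with no upper limit on genes, 0 with doublets left out, 24 with no limit on the fold change, 0 scaled by RNA UMIs, and 2 to 7 when 1 library was left out (2 to 5 shared). The count of tags called between members and other cells (7) was 12 when a Cd4 UMI was required, 12 against cells with 0 of the 6 genes, 27 with no limit on the fold change, and 6 to 10 when 1 library was left out (6 to 7 shared). CD73, PD-1, CD43 and GITR were called in all 17 alternatives. The count of genes of the interaction (22) was 9 when a Cd4 UMI was required (7 shared), 53 with doublets left out (21 shared), 8 and (chosen after seeing the data, left out of both kinds of cells) 6 without myeloid or B cell UMIs, 9 with DESeq2, and 11 to 34 when 1 library was left out (8 to 17 shared). The ratio of shares ran from 0.235 to 0.516 of passing cells and from 0.423 to 0.954 of gate cells when 1 library was left out.

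With at least 4 of the 6 genes required, the sign turned for Lgals1 (-0.17) and, in the interaction, for H2-DMb1 (6.30), H2-Aa (2.31), Ly86 (7.30), H2-Ab1 (9.28), C1qb (2.49) and C1qa (0.34). With no upper limit on genes it turned in the interaction for H2-DMb1 (0.019) and Jun (0.062). The cause was not tested. With the replicate number as a block, 14 genes and 7 tags were called between the groups. Libraries with the same number did not deviate together (r = -0.09 over 4332 genes). A correlation over sums of 12 to 80 members does not decide whether they were handled together.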
